A study of Mus musculus with 4 samples.

Results

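The genes described here are 10 members of the NF-kappaB system in mouse DN3 thymocytes. They are the transcription factor subunits Nfkb1, Nfkb2, Rel, Rela and Relb, the inhibitors and feedback regulators Nfkbia, Nfkbiz and Tnfaip3, and the receptor genes Tnfrsf18 and Tnfrsf9. They were taken from a list by name, out of 21887 protein-coding genes. Each gene was examined over its mm10 span plus 20 kb on each side. Of 36224 open regions in the study, 54 overlapped these 10 windows. Open chromatin was mapped by ATAC-seq, in which a transposase cuts and tags accessible DNA. The cells came from the thymus of wild-type mice and were sorted as DN3, the stage at which T cell precursors rearrange the T cell receptor beta gene. An antibody against the adhesion molecule EpCAM then divided them on magnetic beads into a retained EpCAM+ fraction and an unlabelled EpCAM- fraction, with 2 libraries of each. The labels give both fractions this genotype, tissue and sort, and tell them apart by the EpCAM separation. The labels give no age, pooling or purity, and do not say whether a fraction's 2 libraries represent separate animals. The spread between replicates may therefore be technical.

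NF-kappaB proteins are dimers that share a DNA-binding Rel homology domain and are held in the cytoplasm by inhibitors of the IkappaB family until a receptor signal releases them. In thymocytes the pathway is known for its part in survival at the pre-T cell receptor checkpoint, and in later T cells it responds to antigen, costimulation and TNF family receptors. Several of its targets are its own inhibitors, which makes the response self-limiting.

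The sequences that frame these loci are the promoter windows of 4 members, shown because Nfkbia and Nfkb2 carry copies of stricter kappaB sites, Tnfaip3 had the only region of its window over its start, and the start of Tnfrsf18 was called in 1 fraction. Each window runs from 250 bases before to 50 bases after an annotated start, from RefSeq (GRCm38.p6), written 5′ to 3′ on the strand of the gene. Capitals mark every match, on either strand, of a loose kappaB pattern: GGG, then any 5 bases, then CC. Overlapping matches are joined.
Nfkbia, chr12:55492598-55492897, minus strand: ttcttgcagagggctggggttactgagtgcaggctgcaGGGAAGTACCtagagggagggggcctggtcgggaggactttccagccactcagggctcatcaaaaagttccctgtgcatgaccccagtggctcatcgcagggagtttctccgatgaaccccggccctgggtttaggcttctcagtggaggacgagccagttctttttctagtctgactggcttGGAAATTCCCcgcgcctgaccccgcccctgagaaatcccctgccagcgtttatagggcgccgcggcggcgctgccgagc
Nfkb2, the second of its 3 starts, chr19:46305445-46305744, plus strand: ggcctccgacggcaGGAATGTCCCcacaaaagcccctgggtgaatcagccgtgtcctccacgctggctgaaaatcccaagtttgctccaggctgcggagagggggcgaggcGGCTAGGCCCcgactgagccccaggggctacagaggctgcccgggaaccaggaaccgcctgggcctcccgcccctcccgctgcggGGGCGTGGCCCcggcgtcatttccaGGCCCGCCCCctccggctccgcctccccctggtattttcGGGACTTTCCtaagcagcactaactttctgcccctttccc
Tnfaip3, the first of its 2 starts, chr10:19015361-19015660, minus strand: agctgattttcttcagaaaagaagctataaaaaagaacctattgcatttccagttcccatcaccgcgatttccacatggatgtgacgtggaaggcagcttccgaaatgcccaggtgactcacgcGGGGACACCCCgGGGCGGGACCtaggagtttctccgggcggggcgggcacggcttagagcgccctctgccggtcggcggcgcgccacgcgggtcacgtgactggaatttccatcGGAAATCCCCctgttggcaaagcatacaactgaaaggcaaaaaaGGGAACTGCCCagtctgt
Tnfrsf18, chr4:156026072-156026371, plus strand: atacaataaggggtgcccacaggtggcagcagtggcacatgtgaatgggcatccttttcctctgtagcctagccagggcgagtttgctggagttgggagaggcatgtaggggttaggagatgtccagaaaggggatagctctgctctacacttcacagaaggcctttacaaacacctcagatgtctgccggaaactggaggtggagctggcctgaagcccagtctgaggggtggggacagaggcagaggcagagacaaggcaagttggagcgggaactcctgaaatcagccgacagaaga

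The loose pattern is common, and 53.5% of the 27025 genes with a promoter window held it on 1 of the strands. Of the 7 members with a window, 6 did. The member with no match was Tnfrsf18. Windows for Nfkb1, Relb and Nfkbiz were not used here. Also searched were 2 exact sites of 10 bases, both within the loose pattern. The one found at Nfkbia stood in 29 of 32851 windows (0.0883%) and lies at chr12:55492667-55492676, on the opposite strand, the capitals nearest the start in the window above. The other stood in 51 windows (0.155%), including 2 overlapping windows of Nfkb2 that hold the same copy at chr19:46305705-46305714, the last capitals of its window. The Nfkbia copy lay inside a peak in all 4 libraries, 146 to 242 bp from the summit. The Nfkb2 copy lay in no listed peak, since the nearest region ended at base 46305665. In Rel, the match GGGAAATCCC at chr11:23771052-23771061 fell between the 2 regions at the gene's start and was in none of the 4 lists. The Tnfaip3 match GGGGATTTCC, at chr10:19015413-19015422 on the opposite strand, lay in a peak in all 4 libraries, 68 to 144 bp from the summit. A match is a description of letters, and factor binding was not measured.

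Between 24598 and 29030 peaks were listed per library, and read totals were not used here. As a stand-in for depth, the lowest background value shared by at least 20 peaks was 0.388 and 0.383 in EpCAM+ against 0.290 and 0.286 in EpCAM- libraries, a ratio of 1.34. The weakest listed −log10 q was 2.07 and 2.02 against 1.32 and 1.34. Summit fragments are the pileup at a peak's summit, solved from the authors' fold and −log10 p. They are not adjusted for depth. The fractions were compared by presence in the lists, which depth can also affect, and by ranks within each library. Regions are peaks of any library merged where they overlap. Of 10 marker genes of DN3 cells, 5 (Il2ra, Notch1, Bcl11b, Cd3e and Lck) had a region called in all 4 libraries at their start or end. Rag1, Rag2, Ptcra, Dtx1 and Tcf7 did not. Of the thymic epithelial markers, 3 of 7 had one (Cldn4, Aire and Ly75), and Krt5 had no region in its window. Among regulatory T cell markers, 1 of 4 had one (Ikzf2), and Foxp3 did not. No B cell, myeloid, innate lymphoid or gamma-delta T list had more than 1 such gene. The DN3 (50%) and thymic epithelial (42.9%) shares were both near the 43.0% of all protein-coding genes. Of 65 regions in the DN3 windows, 3 were EpCAM--only, at Ptcra, Dtx1 and between Rag1 and Rag2, against 1.72% of all regions. EpCAM+-only regions numbered 0 there, against 4.40% of all regions. Of 26 regions in the thymic epithelial windows, 1 (3.85%) was EpCAM+-only and 0 were EpCAM--only. It lay in the window of Krt8, with 13 and 8 summit fragments in EpCAM+ replicates 1 and 2. Of 20 regions in the myeloid windows, 1 was EpCAM--only, in the window of Itgam. Accessibility is not expression, and the part of other cells in the results below was not tested.

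Most regions at the NF-kappaB genes were found in both fractions. Of the 54 regions, 28 (51.9%) were called in all 4 libraries, against 46.3% of all regions. EpCAM+-only regions, called in both EpCAM+ and neither EpCAM- library, numbered 3 (5.56%), against 4.40% of all regions. EpCAM--only regions numbered 0, against 1.72% of all regions. Both shares were near those of all regions. A further 8 regions were called in 1 library of each fraction, 7 in 3 libraries and 8 in a single library. Of the 7 called in 3 libraries, 6 lacked an EpCAM- peak, and for 5 of these the missing list was EpCAM- replicate 2. The windows held 43 and 48 peaks in the EpCAM+ and 42 and 42 in the EpCAM- lists, or 45.5 ± 3.54 against 42 ± 0 (SD, n = 2; two-sided exact permutation p = 0.33, the smallest that 2 libraries against 2 allow). Those peaks covered 20422 ± 606 bp in the EpCAM+ and 16665 ± 569 bp in the EpCAM- libraries (SD, n = 2; two-sided exact permutation p = 0.33). The whole lists differed in the same direction, with 12.9 and 12.8 Mb covered by 26029 and 29030 peaks in the EpCAM+ against 10.8 and 10.6 Mb by 24598 and 25924 peaks in the EpCAM- libraries.

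**Figure D1:**
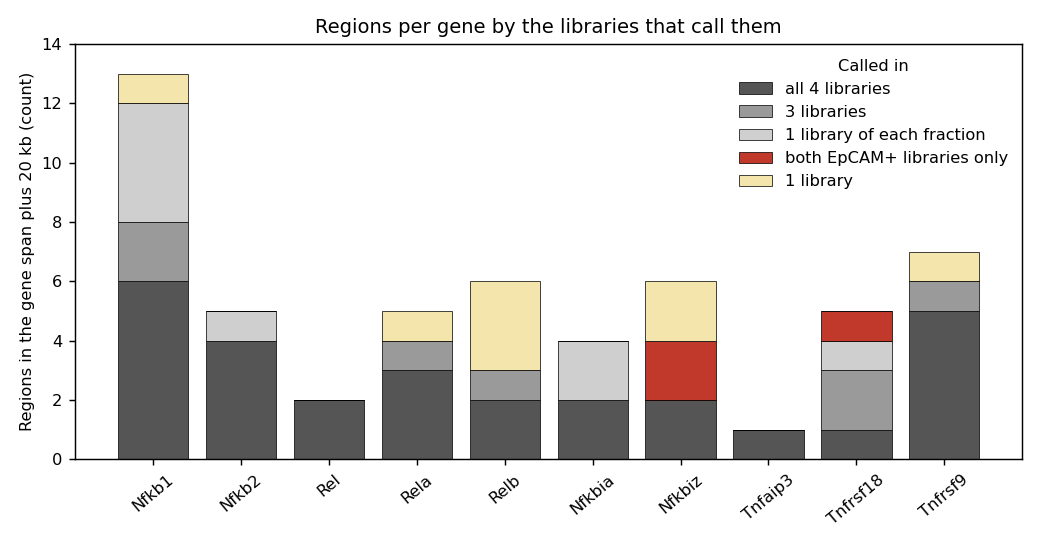
Number of open regions in the span plus 20 kb of each gene (y axis, count), stacked by the libraries that called them. Nfkb1 had 13 regions and Tnfaip3 had 1, and the regions called in both EpCAM+ libraries alone lay at Nfkbiz (2) and Tnfrsf18 (1).

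Members differed widely in how many open regions surrounded them. Nfkb1, the longest gene at 107 kb, had 13 regions, more than 99.4% of protein-coding genes. Tnfrsf9 had 7, Relb and Nfkbiz 6 each, and Nfkb2, Rela and Tnfrsf18 5 each. Nfkbia had 4, Rel 2 and Tnfaip3 1. The median over members was 5 regions, against 2 over all protein-coding genes. Per length the order changed, with 1.17 regions per 10 kb at Tnfrsf18 and 0.882 at Nfkb1 against 0.183 at Tnfaip3. Of the 54 summits, 23 lay within the member gene and 31 outside it, and 6 of the regions, those at a member's own start not counted, lay within 1 kb of the end of a neighbouring gene. The region farthest from its member within the windows lay 19764 bp away, at Nfkbiz, and the nearest beyond the limit lay 22493 bp from Nfkbia. A region called in all 4 libraries lay at the start of 8 of the 10 members, against 43.0% of protein-coding genes counted in the same way. At the start means a summit within 1000 bp of an annotated start or, for Nfkb1, Relb and Nfkbiz, of either gene end. The exceptions were the receptor genes Tnfrsf18 and Tnfrsf9.

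**Figure D2:**
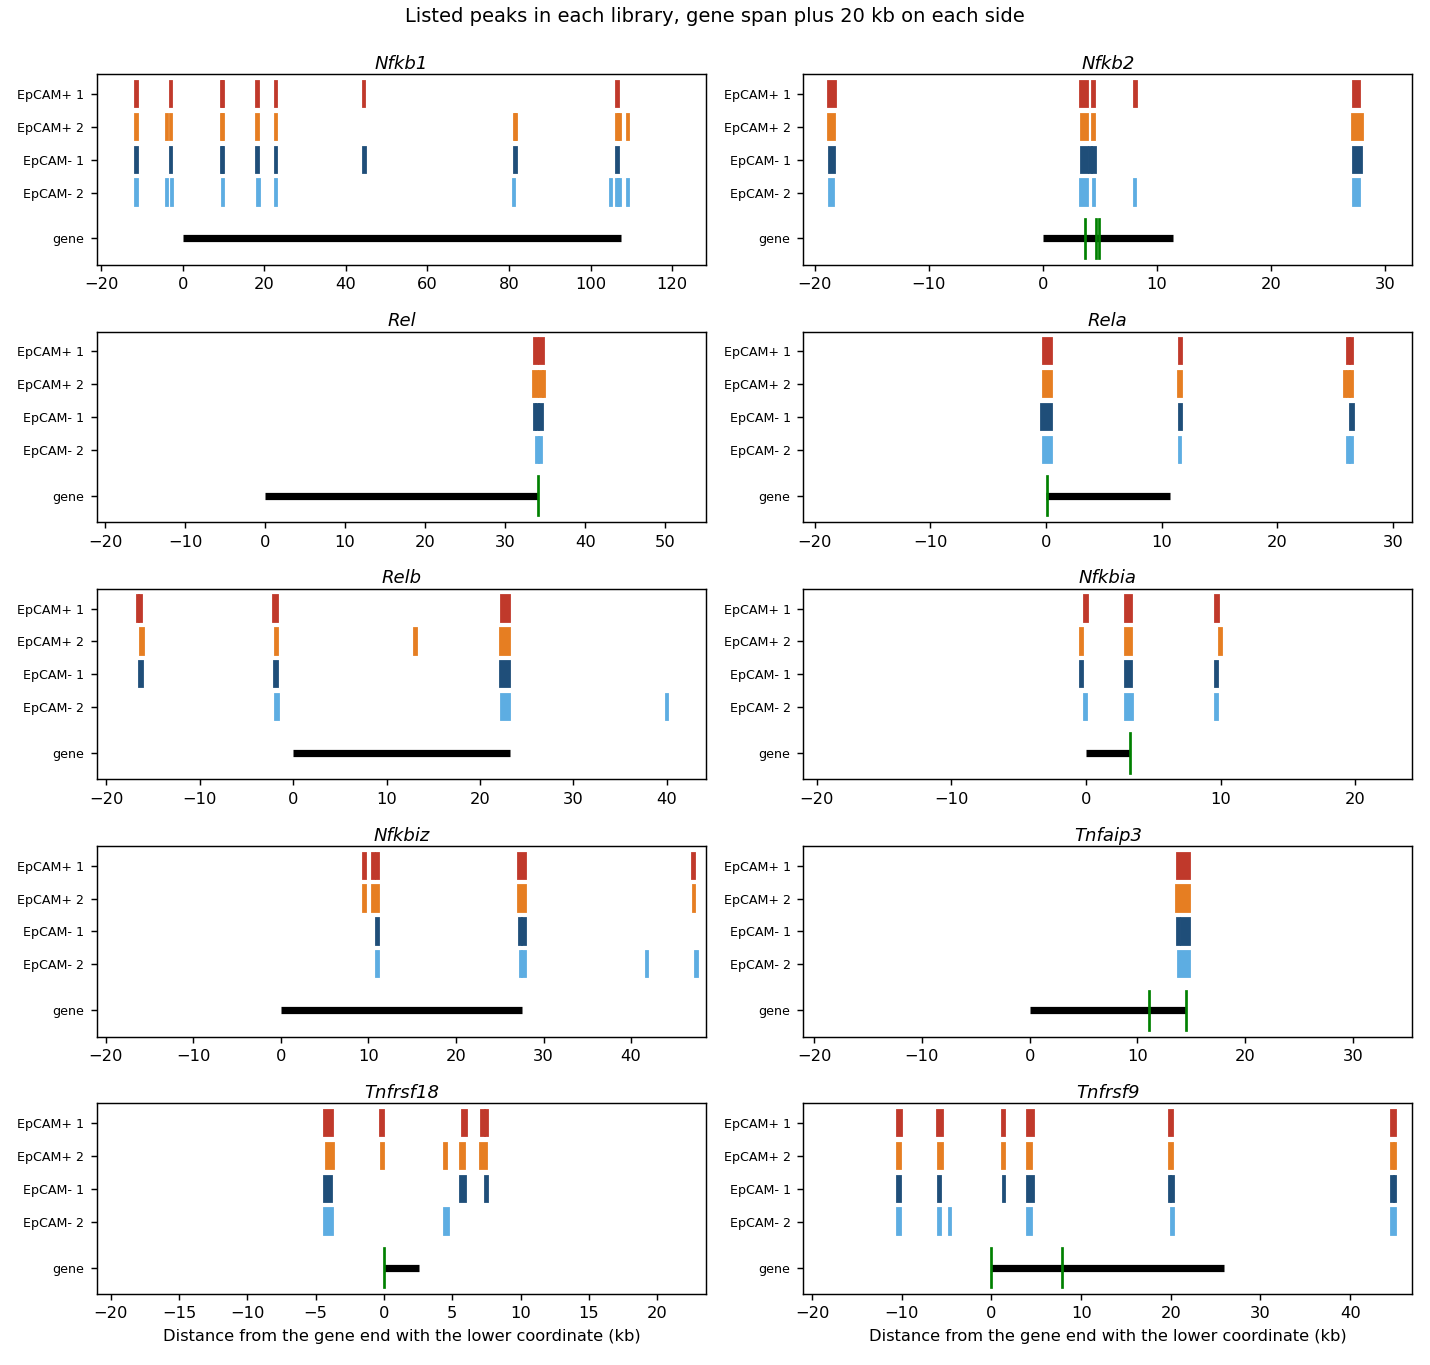
Position of every listed peak in the 4 libraries at each gene, with the distance in kb from the gene end of lower coordinate on the x axis. The black bar is the gene, green ticks are annotated starts, and short peaks are drawn at a minimum width. Of the 54 regions 28 have peaks in all 4 libraries, and Tnfaip3 and Rel have peaks at their start alone.

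In the following, values are given for EpCAM+ replicates 1 and 2 and then for EpCAM- replicates 1 and 2. Ranks are percentiles by −log10 q within each library over the 16761 regions called in all 4, so that every library ranks the same regions. A region is said to rank higher in a fraction when both of its libraries stand above both of the other.

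Rela encodes p65, the main transactivating subunit. Its start held a region at chr19:5637015-5638003 with 51 and 46 summit fragments in the EpCAM+ and 32 and 34 in the EpCAM- libraries. Its percentiles were 71.1 and 63.2 against 56.4 and 61.0, so it ranked higher in the EpCAM+ fraction. The fractions' means differed by 8.51 points, against 7.89 and 4.60 between replicates. Ranked by fold enrichment, the 2 fractions overlapped. Beyond the far end of the gene, chr19:5648877-5649209 had 13 and 24 against 17 and 11 fragments, and its ranks overlapped. The 3 remaining regions of the window lay at the end of Sipa1, and 1 of them was called in all 4 libraries.

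Rel encodes c-Rel, a subunit prominent in lymphocytes. Its window held 2 regions, both at the start and both called in all 4 libraries. The one before the start, chr11:23771084-23771763, had 67 and 50 against 40 and 45 fragments. The one after it, chr11:23770300-23771028, had 38 and 28 against 18 and 30. Their ranks overlapped between fractions, with percentiles of 81.1 and 67.6 against 67.2 and 75.6 for the first and of 46.3 and 26.2 against 11.3 and 51.1 for the second. No other peak was listed in the window.

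Nfkb1 encodes the p105 precursor of the p50 subunit. Of its 13 regions, 6 were common to all libraries, and 0 were EpCAM+-only or EpCAM--only. At its end of higher coordinate, chr3:135690891-135691217 had 17 and 19 against 19 and 12 fragments, low in the ranking at percentiles of 8.02 and 5.56 against 28.9 and 1.40. Beyond the other end, 2 regions ranked in opposite directions. The region at chr3:135573038-135573653, 11375 bp from the gene, lay only 1876 bp from the end of Manba. It had 25 and 33 against 8 and 16 fragments and percentiles of 44.6 and 55.3 against 5.38 and 33.1. The fractions' means differed by 30.7 points, against 10.8 and 27.7 between replicates. The region at chr3:135581458-135582083, 2760 bp from the gene, had 36 and 38 against 38 and 52 fragments and percentiles of 54.9 and 46.8 against 66.9 and 80.0. The first ranked higher in the EpCAM+ and the second in the EpCAM- fraction, and both did so by fold and by summit fragments as well. Inside the gene, 8 to 29 summit fragments were found at each listed peak, and a region at chr3:135602664-135603266 was joined from peaks that had no base in common to all 4 libraries.

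Nfkb2 encodes the p100 precursor of p52, the subunit of the noncanonical pathway. Of its 5 regions, 4 were called in all 4 libraries, 2 of them before annotated starts. The region before the first start, chr19:46304274-46304989, had 59 and 53 against 45 and 52 fragments and percentiles of 70.6 and 63.6 against 64.3 and 75.9. The region before the second start, chr19:46305082-46305665, had 28 and 46 against 28 and 22. Both overlapped between fractions, and in the second EpCAM+ replicate 2 stood above the other 3 libraries. The strongest region of the window, chr19:46282198-46282883, lay 4074 bp from the end of Gbf1 and had 80 and 94 against 79 and 63 fragments. The region at chr19:46328142-46329029, 454 bp from the end of Fbxl15, had 81 and 82 against 52 and 59. It ranked higher in the EpCAM+ libraries by −log10 q, at 90.1 and 88.0 against 79.2 and 85.9, and overlapped by fold.

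Relb encodes the partner of p52 in the noncanonical pathway, and its gene held the strongest region of all 10 windows. That region, chr7:19628337-19629443, has its summit 650 bp inside the end of higher coordinate. It had 149 and 162 against 137 and 128 summit fragments, and its −log10 q was 124 and 140 against 119 and 113. Its percentiles were 97.5 and 97.9 against 97.9 and 97.6, so the fractions overlapped. A region 126 bp from the end of Clasrp, chr7:19604094-19604747, had 26 and 27 against 28 and 27 fragments. It ranked higher in the EpCAM- libraries, at 61.7 and 62.3 against 50.6 and 53.0, and did so by fold and by summit fragments too. The 4 other regions were weak, with at most 16 fragments in any library, and 3 of them were called in 1 library.

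The 3 genes grouped here as inhibitors and feedback regulators each had a region in every library at the start or, for Nfkbiz, at a gene end. By −log10 q Tnfaip3 ranked higher in the EpCAM+ and Nfkbia in the EpCAM- libraries, while Nfkbiz overlapped. By fold, Tnfaip3 turned to the EpCAM- and Nfkbiz ranked higher in the EpCAM+ libraries. Tnfaip3 encodes A20, a ubiquitin-editing enzyme that ends NF-kappaB signalling. Its single region, chr10:19014502-19015804, was the widest of the members' regions at 1303 bp and covered the whole promoter window shown above in all 4 libraries. It had 122 and 124 summit fragments in the EpCAM+ and 71 and 72 in the EpCAM- libraries, and the replicates of each fraction were close together. Its percentiles were 91.8 and 91.7 against 84.3 and 84.9, and by summit fragments 95.4 and 95.2 against 88.7 and 89.6. Ranked by fold the order turned, with 58.9 and 60.3 against 62.7 and 61.8. The local background at this summit was 10.8 and 10.2 fragments against 5.44 and 5.51, so that the folds were 10.4 and 11.2 against 11.2 and 11.2. The part of this background in the pileup difference was not tested.

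Nfkbia encodes IkappaBalpha, the inhibitor that retains NF-kappaB in the cytoplasm and is itself induced by it. The region over its start, chr12:55492290-55492861, had 29 and 26 against 29 and 31 summit fragments. Its percentiles were 27.2 and 17.1 against 43.0 and 48.0, higher in the EpCAM- fraction. The difference of means, EpCAM+ minus EpCAM-, was -23.4 points, and replicates differed by 10.0 and 5.08 points. By fold the percentiles were 8.09 and 3.58 against 24.1 and 29.6, and by summit fragments 47.2 and 39.9 against 56.6 and 60.6, in the same order. The stricter kappaB site described above lies in this region. A second region, chr12:55498991-55499495, 6565 bp before the start, had 17 and 15 against 11 and 13 fragments. It was joined across fractions by the peak of EpCAM+ replicate 1, since no base was common to all 4 libraries. At the far end of the gene, 2 regions were each called in 1 library of each fraction.

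Nfkbiz encodes IkappaBzeta, an atypical nuclear member of the inhibitor family that acts with p50 on selected genes. Its 6 regions included 2 of the 3 EpCAM+-only regions. The stronger of them, chr16:55820776-55821065, lay within the gene, 9510 bp from the end of lower coordinate, with 33 and 23 summit fragments on a local background of 4.49 and 4.09. Scaled by the libraries' lowest common backgrounds, these would be 17.2 to 24.6 fragments in an EpCAM- library. There 11 would have sufficed for the lowest listed −log10 p, a lenient limit. The effect of depth on the absence was not tested. The nearest EpCAM- peak lay 1154 bp away, in the neighbouring region chr16:55821835-55822552. That region was called in all 4 libraries with 51 and 37 against 34 and 19 fragments, and its ranks overlapped. The other EpCAM+-only region, chr16:55858379-55858657, lay outside the gene with 10 and 7 fragments, and a peak of EpCAM- replicate 2 with 5 fragments began 61 bp from it. The region over the end of higher coordinate, chr16:55838483-55839394, had 30 and 35 against 22 and 26 fragments, with overlapping percentiles of 53.5 and 59.7 against 44.5 and 54.7. That region also lay 906 bp from the end of Nxpe3.

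**Figure D3:**
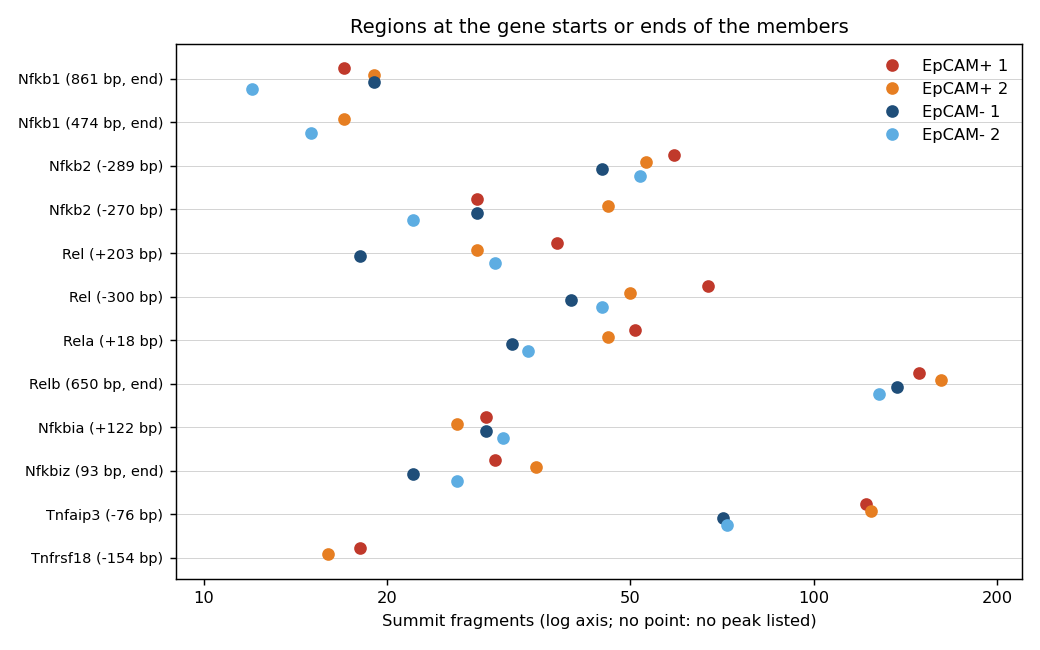
Summit fragments (x axis, log scale) in each library for the 12 regions within 1000 bp of a member's annotated start, with the distance of the strongest summit from it, or of a gene end where marked. At Tnfaip3 the EpCAM+ libraries (122 and 124) stand apart from the EpCAM- libraries (71 and 72), at Relb all 4 lie between 128 and 162, and at Tnfrsf18 points exist for the EpCAM+ libraries alone. Fragments are not adjusted for depth.

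The receptor genes differed from the other members at their starts. Tnfrsf18 encodes GITR, a costimulatory receptor of activated and regulatory T cells. The EpCAM+-only region chr4:156026062-156026336 lay over its start, with the summit 154 bp before it, and covered 265 and 214 of the 300 bases of the window shown above. It had 18 and 16 summit fragments and a −log10 q of 6.28 and 5.05, and neither EpCAM- list had a peak in the promoter window. Scaled to the EpCAM- libraries, its 18 and 16 fragments would be 12.0 to 13.4, where 9 would have sufficed for the same lenient limit. The effect of depth on this absence was not tested either. With the lists cut to the length of the shortest, the region was no longer EpCAM+-only. The nearest EpCAM- peak lay 3442 bp away. In the windows of 4 regulatory T cell markers, 17 regions were listed. Of these, 8 (47.1%) were called in every library, against 46.3% of all regions. EpCAM+-only was 1 (5.88%), within Ikzf2, with 8 and 11 fragments, against 4.40% of all regions. Both shares were near those of all regions.  The strongest region of the Tnfrsf18 window, chr4:156021909-156022666, lay 4038 bp before the start. It lies between Tnfrsf18 and Tnfrsf4, the gene of the related receptor OX40. It had 31 and 29 against 35 and 32 fragments and ranked higher in the EpCAM- libraries, at 64.4 and 59.3 against 48.7 and 42.8, in every ranking tried (−log10 q, fold and summit fragments). The region at the start differed in presence and has no rank, so its direction was not compared with that of the region before it on the same measure. Of the 3 regions beyond the far end, 2 were called in all libraries but EpCAM- replicate 2, with 16 to 25 fragments.

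Tnfrsf9 encodes CD137, a costimulatory receptor induced on activation. It had no region within 1000 bp of either of its 2 annotated starts, although 5 of the 7 regions of its window were called in all 4 libraries. The nearest to a start, chr4:150921311-150921619, 1309 bp after the first start, had 18 and 27 fragments in the EpCAM+ libraries, 15 in EpCAM- replicate 1 and no peak in EpCAM- replicate 2. Within the gene, chr4:150924135-150924876 had 49 and 63 against 40 and 46 fragments and overlapped in rank. Also within the gene, chr4:150939922-150940520 had 20 and 25 against 13 and 15, and its percentiles of 34.6 and 43.0 stood above 16.0 and 25.5. Before the first start, chr4:150914046-150914784 had 33 and 29 against 22 and 21, and its percentiles of 41.2 and 26.1 stood above 17.7 and 18.2. Both of these regions ranked higher in the EpCAM+ fraction by fold and by summit fragments as well. The region of highest mean percentile, chr4:150964723-150965326, lay beyond the far end of the gene with 52 and 68 against 31 and 53 fragments, and overlapped. A region 55 bp from the end of Park7 also overlapped, with 43 and 64 against 47 and 48 fragments.

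Over all 28 shared regions, 6 (21.4%) ranked higher in both EpCAM+ libraries, against 21.0% of all shared regions, and 4 (14.3%) ranked higher in both EpCAM- libraries, against 20.6%. The other 18 overlapped. The members' share was near that of all shared regions for EpCAM+ and below it for EpCAM-, and the difference was not tested. The median difference in percentile, EpCAM+ minus EpCAM-, was 3.12 points over the members' regions and 0.0865 over all shared regions, where the central 80% lay between -14.8 and 14.4. Of the 6 regions higher in the EpCAM+ fraction, 3 kept that order by fold and all 6 by summit fragments. The 4 regions higher in the EpCAM- fraction kept it in both. Counted anew by fold, 4 of the 28 ranked higher in the EpCAM+ and 7 in the EpCAM- libraries. Over all shared regions the shares by fold were 19.1% and 20.7%. The balance of the tally thus turned, and the difference was not tested. With 2 libraries against 2, a single region cannot reach a two-sided exact permutation p below 0.33, and none was tested.

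**Figure D4:**
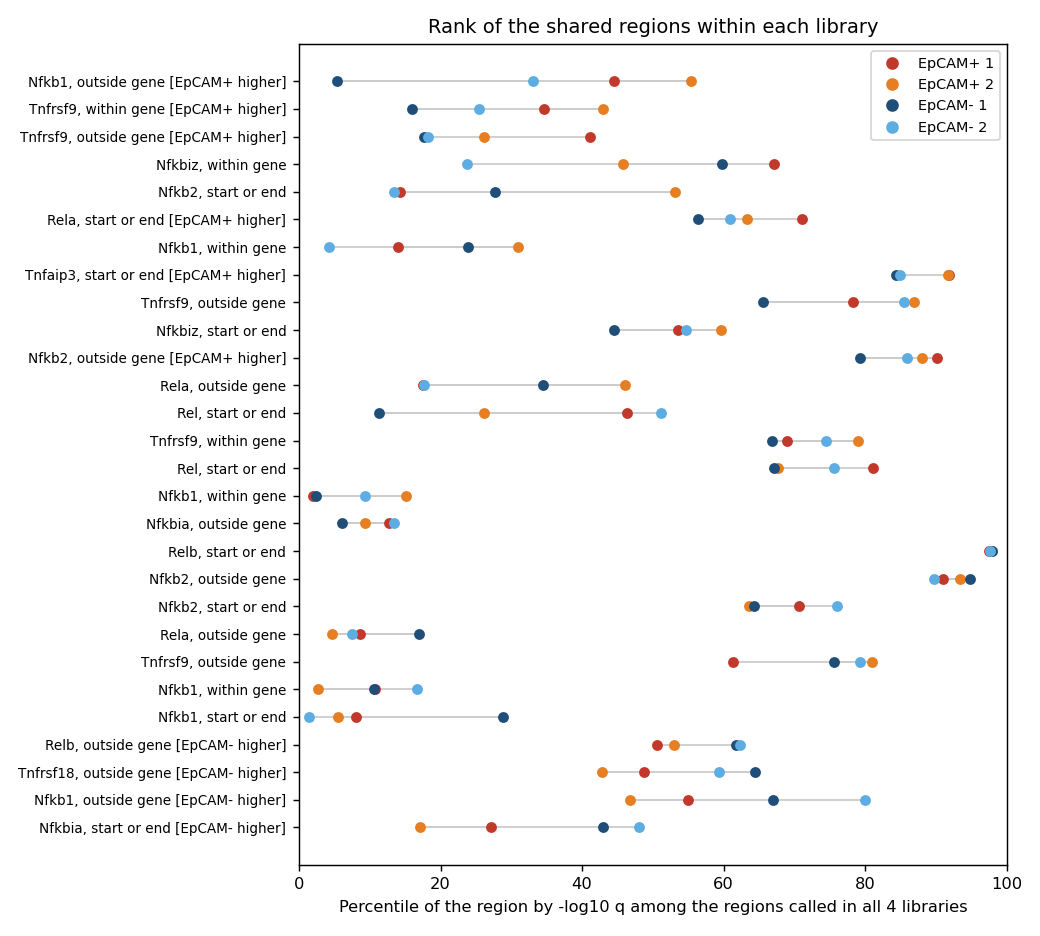
Percentile of each of the 28 shared regions by −log10 q (x axis) in each library, among the 16761 regions called in all 4, sorted by the difference between the fractions' means. Brackets mark regions whose 2 libraries of a fraction both stand above both of the other, 6 for EpCAM+ and 4 for EpCAM-. The differences run from -23.4 points at the start of Nfkbia to 30.7 points at a region between Nfkb1 and Manba, nearer to Manba.

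The wider pathway was followed with 50 further genes. Their windows held 183 regions. All 4 libraries shared 91 (49.7%), against 46.3% of all regions. EpCAM+-only regions numbered 10 (5.46%), against 4.40%, and EpCAM--only regions 0, against 1.72%. Of the 10 EpCAM+-only regions, 1 is the region at the start of Tnfrsf18, which also lies within 20 kb of Tnfrsf4. At least 1 EpCAM+-only region lay in the windows of 10 of 50 genes (20%) and of 2 of 10 members, against 9.60% of protein-coding genes. A window with more regions has more room for such a region. Member windows held a median of 5 regions, against 2 over all protein-coding genes, and the part of this in the gene shares was not tested. EpCAM--only regions lay in none of these windows, against 2.86% of protein-coding genes. The lists were chosen with earlier results in view, windows of neighbours overlap, and these shares were not tested.

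Open starts were counted by role, against 43.0% of protein-coding genes, with no test of the differences between roles. Of 20 kinases and adaptors, which carry the signal from the receptor to the IkappaB kinase complex, 17 had a region called in all 4 libraries at their start or end. Among them were Chuk, Ikbkb and Ikbkg, which encode that complex, and Bcl10 and Malt1, which link antigen receptors to it. Of 9 inhibitors 6 did, among them Nfkbib and Cyld. Of 8 receptors, 1 did (Tnfrsf1b). Cd27, not counted among them, had a peak at its start in each library, in 2 separate regions that were each called in 1 library of each fraction. Of 5 ligands, 1 did (Tnfsf11, which encodes RANKL), and of 8 target genes 2 did (Icam1 and Bcl2l1).

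Tnfsf11 had an EpCAM+-only region 710 bp inside a gene end, chr14:78307116-78307470, with 15 and 18 summit fragments, and Ltbr, the lymphotoxin beta receptor gene, had one 294 bp outside, chr6:125313983-125314222, with 6 and 8. The Ltbr region lay 92 bp from the end of Scnn1a. Nfkbid, which encodes another nuclear member of the inhibitor family, had one 3089 bp away with 9 and 9 fragments. The EpCAM+-only regions counted for Traf2, Tnip1, Zc3h12a, Tnfrsf1b and Il1r1 lay 8555 to 19684 bp from the gene, each nearer to the end of another gene, with 8 to 13 fragments.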

How the data were processed

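Open chromatin was profiled in 4 libraries. The authors deposited 1 narrow peak list per library on mm10 (GRCm38), and the submitters' processing notes name Bowtie2, Picard and MACS3 among the tools. Versions, settings, duplicate handling and the correction for transposase cutting are not given in the sources used. Per the layout of the deposited files, each peak has a score, a fold ratio over local background, a −log10 p and a −log10 q, made by the authors' caller for that peak and used here to describe or rank peaks within a list. Summit fragments were recovered by a Poisson tail from the fold and −log10 p that the authors deposited, with a tolerance of 0.01 on −log10 p, for 99.9885% to 99.9959% of peaks. The solver, merging and ranks were tested on simulated data. Regions are peaks on chromosomes 1 to 19, X and Y joined where they overlapped by at least 1 bp (Python 3.11.15, pandas 2.3.3, SciPy 1.17.1). Gene spans, starts and promoter sequences are from RefSeq GRCm38.p6, and 7 of the 10 members matched a promoter entry. Peaks have no read counts, so no count test was used. The members and lists were chosen with earlier results of these data known. Named by rule are the members, with their start, strongest and fraction-only regions, pathway genes with a fraction-only region (1 is not reported here), and neighbours within 1000 bp. Regions named for their rank, role examples and other neighbours were chosen after values were seen. Alternatives changed the peak strength, list length, merging, absence, flank, start distance, ranking column and libraries.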

Additional observations from a re-analysis of the deposited data

How the results depend on the processing

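All 9 alternatives for the number of members with an open start gave 6 to 8 members. With lists of equal length, 1 EpCAM+-only region was left of 53 regions, against 3.31% of all regions. It was the one within Nfkbiz at chr16:55820776-55821065, which stayed EpCAM+-only under every alternative run for that count. The flank settings could not have removed it, since it lies within the gene. Leaving out 1 library could not either, since both EpCAM+ libraries and no EpCAM- library called it. With a −log10 q of at least 5 the count was again 3, of 51 regions, against 4.84% of all regions. A region at Tnfrsf9 then stood in place of the outer Nfkbiz region. Merging across 200 bp gave 2 of 45, against 4.35% of all regions. Flanks of 0 and 10 kb gave 2 of 26 and 2 of 40, against 4.40%. Absence within 500 bp gave 2 of 54, against 4.40% of all regions counted without that rule. A depth-scaled limit, chosen after seeing the data, kept all 3, but it asks only for the lowest listed −log10 p. The number of regions called in all 4 libraries was 15 of 26 within the gene spans alone and 45 of 79 with flanks of 50 kb. Fewer or more regions enter there, and the share over all regions was 46.3%. Within the spans alone, 3 of 15 shared regions ranked higher in the EpCAM+ and 1 in the EpCAM- libraries, against 21.0% and 20.6% of all shared regions. By fold enrichment 4 of 28 ranked higher in the EpCAM+ and 7 in the EpCAM- libraries, against 19.1% and 20.7% of all shared regions. The start of Tnfaip3 was among the 7, and the cause was not tested. Leaving out 1 library loosens each rule, since its fraction then needs 1 call. Of 49 to 54 member regions, EpCAM+-only regions then numbered 4 to 8 and EpCAM--only regions 0 to 5, 5 without EpCAM- replicate 1. Over all regions the shares were 8.18% to 16.7% and 3.44% to 9.37%. Regions called in all remaining libraries numbered 28 to 33, against 51.3% to 52.9% of all regions, and members with an open start 8 in each case. Among those 28 to 33 regions, 8 to 15 ranked higher for EpCAM+ and 7 to 9 for EpCAM-. Over all shared regions the shares were 34.4% to 36.7% and 33.9% to 35.8%. With the replicate number as a block (replicate block, chosen after seeing the data), the differences of 3.5 peaks and 3756.5 bp in the windows had an exact sign-flip p of 0.5, the smallest that 2 pairs allow. Nothing says that equal numbers mark a shared source, and region counts and ranks have no test to pair. Unknown read depth limits what the absence of a weak peak shows.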
